A study of Mus musculus with 25 samples.

Results

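The genes described here are the 37 genes of the mouse mitochondrial genome, taken as every row of the count table whose symbol starts with mt-, out of 55421 genes in all. They comprise 13 protein genes, 2 ribosomal RNA genes and 22 transfer RNA genes. RNA was counted by bulk sequencing of total RNA in lungs of 25 female wild-type mice, labelled C57BL/6J in the sample labels and C57BL/6cmdb in the design text. House dust mite (HDM) extract, which holds allergens of the mite and is used to model allergic asthma, was given through the nose. The 2-week model held 5 mice on saline, 5 on 10 µg and 5 on 100 µg of extract, and the 12-week model held 5 mice on saline and 5 on 100 µg. All mice carried the same wild-type genotype, and no ages are given in the sources used here. A label calls the controls untreated, while the protocol says saline, and they are called saline here.

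Mitochondrial DNA is a small circle present in many copies per cell. It encodes core subunits of respiratory complexes I, III and IV and of ATP synthase, together with the ribosomal and transfer RNAs that translate them, while all other mitochondrial proteins come from the nucleus. Both strands are transcribed into long precursor RNAs that are cut apart mostly at the transfer RNAs lying between the other genes, so members made from the same strand start out in a common transcript. In the lung, surfactant-producing alveolar type 2 cells and ciliated airway cells are known to be rich in mitochondria.

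Of the 13 protein genes, 7 were well counted and 6 were almost uncounted. mt-Co1, mt-Cytb, mt-Nd1, mt-Nd2, mt-Nd4, mt-Nd5 and mt-Nd6 had at least 1000 counts in every library. mt-Co2 had 47 counts over all 25 libraries, mt-Atp8 had 16, mt-Atp6 had 52, mt-Co3 had 43, mt-Nd3 had 309 and mt-Nd4l had 0. The highest count of any of these 6 in a library was 29, for mt-Nd3. These genes encode subunits 2 and 3 of cytochrome c oxidase, 2 subunits of ATP synthase and 2 subunits of complex I. All 6 lie whole within 1 stretch of the mitochondrial chromosome, chrM:6381-11042 in the GRCm38 build, 4662 bases long, which has a near-identical nuclear copy on the minus strand of chr1:24611535-24616197. The annotation lists 7 unprocessed pseudogenes along that copy, in the same order as the mitochondrial genes. The number of bases between neighbours was the same in the copy as in the original for 5 of the 6 pairs and differed by 1 base, 74 against 73, between mt-Nd3 and mt-Nd4l.

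The extent of the copy is shown by a window of mt-Co2 (chrM:7293-7412) beside the same window of its copy Gm28661 (chr1:24615166-24615285, minus strand), both read from GENCODE transcripts of the GRCm38 build. No base differed in these 120 bases, so no capitals appear.
mt-Co2: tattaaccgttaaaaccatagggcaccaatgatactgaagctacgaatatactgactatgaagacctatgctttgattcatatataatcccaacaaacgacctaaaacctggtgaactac
Gm28661: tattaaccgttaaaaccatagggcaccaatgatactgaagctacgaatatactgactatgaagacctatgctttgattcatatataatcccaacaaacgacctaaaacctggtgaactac
The first 120 bases of mt-Nd3 (chrM:9459-9578) and of its copy Gm28438 (chr1:24613000-24613119, minus strand) follow, because mt-Nd3 was the best counted of the 6. The capital marks the substitution T3C, counted from 1 at the 5′ end of mt-Nd3, which was the only one in the 345 bases that aligned.
mt-Nd3: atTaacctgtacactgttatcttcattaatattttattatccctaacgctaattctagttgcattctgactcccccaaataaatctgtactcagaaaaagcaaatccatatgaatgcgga
Gm28438: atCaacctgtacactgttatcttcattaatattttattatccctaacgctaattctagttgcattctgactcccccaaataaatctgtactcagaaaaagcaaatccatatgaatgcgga

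mt-Co2 matched its copy at 681 of 681 aligned bases, mt-Atp6 at 678 of 678, mt-Co3 at 783 of 783, mt-Nd4l at 294 of 294, and mt-Nd3 at 344 of 345. mt-Atp8 has no annotated pseudogene of its own, but it lies in the 233 bases between mt-Co2 and mt-Atp6, a gap of the same length in the copy. The pseudogenes were low too. Gm28661 had 132 counts over all libraries, Gm10925 (the copy of mt-Atp6) 164, Gm28437 (of mt-Co3) 111, Gm28438 11 and Gm10222 (of mt-Nd4l) 8. A read that lies where the bases are identical fits both places equally well, and how the counting treated such reads is not given in the sources used here. The levels of these 6 genes are therefore uncertain, and the protein-gene shares below are shares of the other 7.

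2 well-counted genes also reach into the copied stretch. The last 492 bases of mt-Co1, the catalytic subunit of cytochrome c oxidase, aligned to Gm29216 at 98.8% identity, with all 6 differing bases between T1056A and A1066T at the start of the copy. The first 876 of the 1378 bases of mt-Nd4, a membrane-arm subunit of complex I, matched Gm28439 without a difference. A different pseudogene, Gm13340 on chromosome 2, shares 80 words of 100 bases with mt-Co1, and 30.8% of all such words of mt-Co1 occurred in nuclear transcripts. The other 502 bases of mt-Nd4 lie outside its match. No 100-base word of mt-Nd1, mt-Nd5, mt-Nd6, mt-Cytb, mt-Rnr1 or mt-Rnr2 occurred in an annotated nuclear transcript, and 3.19% of those of mt-Nd2 did. With words of 50 bases the shares were 7.61% for mt-Nd5, 1.04% for mt-Rnr2, 8.19% for mt-Nd2 and 51.1% for mt-Co1. They were 0 for mt-Nd1, mt-Nd6, mt-Cytb and mt-Rnr1. Copies without an annotated transcript are missed by this search, which gave 0 for mt-Atp8 too.

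**Figure D1:**
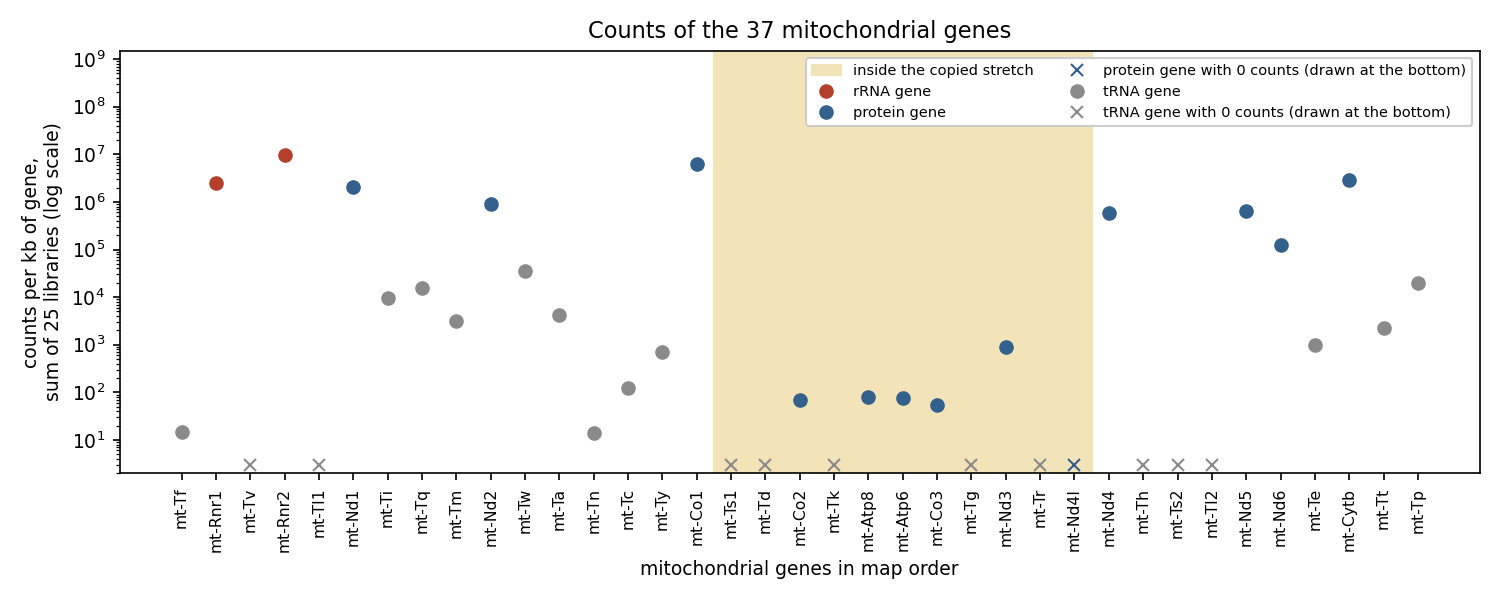
Counts per kb of gene summed over the 25 libraries (y axis, log scale) for the 37 mitochondrial genes in map order (x axis), with colour for the class of gene, crosses for genes with 0 counts and shading for genes that lie whole within the copied stretch. The 6 protein genes in the shaded stretch lie far below the 7 outside it, and its 5 transfer RNA genes have 0 counts.

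The transfer RNA genes, each 59 to 75 bases long, took no more than 0.00145% of counts in any library. Of the 22, 12 had any count and 9 had more than 10 counts over all libraries. All 5 in the copied stretch (mt-Ts1, mt-Td, mt-Tk, mt-Tg and mt-Tr) had 0 counts. Of the 10 outside it that had, by a split chosen after the counts were seen, at least 70 free bases next to them on their own strand, or that border the control region at either end of the map, 9 had more than 10 counts. The exception was mt-Tf, with 1 count. The 7 that lie closer to neighbours on their own strand had at most 8 counts each. The free bases need lie on 1 side only: mt-Tm has 0 bases between its end and mt-Nd2. Whether the counts came from mature transfer RNAs or from precursors was not tested. 5 of 8 transfer RNA genes on the minus strand had more than 10 counts, against 4 of 14 on the plus strand.

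The 3 transfer RNAs with a mean of at least 1 CPM (counts per mega-count of the library, after edgeR's TMM scaling between libraries) are printed below with their anticodon in capitals, followed by mt-Tl1, which lies directly between mt-Rnr2 and mt-Nd1 and had 0 counts. mt-Tw (chrM:4950-5016, plus strand) carries tryptophan, mt-Tq (chrM:3772-3842, minus strand) glutamine, mt-Tp (chrM:15356-15422, minus strand) proline and mt-Tl1 (chrM:2676-2750, plus strand) leucine.
mt-Tw: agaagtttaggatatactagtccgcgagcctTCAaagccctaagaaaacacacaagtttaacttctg
mt-Tq: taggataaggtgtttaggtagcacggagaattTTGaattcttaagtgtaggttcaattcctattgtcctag
mt-Tp: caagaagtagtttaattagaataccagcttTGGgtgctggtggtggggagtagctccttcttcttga
mt-Tl1: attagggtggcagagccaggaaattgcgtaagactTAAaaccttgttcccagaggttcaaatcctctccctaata

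Before the group results, 2 facts about the libraries apply to all of them. Replicate 4 of saline at 2 weeks stood apart, with 7.23 M counts (M, mega-counts) against 25.4 to 51.9 M in the other 24 libraries, and with 27.8% of its counts on CT010467.1, a locus annotated as ribosomal RNA, which held at most 0.143% elsewhere. Where leaving it out changed the call or direction of a gene's printed fold change, values with and without it are given. The 12-week group labelled saline carried markers of allergic airway inflammation, which goes against that label. A list of 12 such markers had summed levels of 2616 to 8877 CPM there, against 74.3 to 138 CPM in saline at 2 weeks. At 100 µg after 12 weeks they had 2734 to 6602 CPM. The extract groups at 2 weeks overlapped saline at 2 weeks, with 67.8 to 222 CPM at 10 µg and 65.6 to 240 CPM at 100 µg. The markers thus set both 12-week groups apart from all 2-week groups, and why was not tested. The label of the 12-week saline group is therefore in doubt wherever it is compared. The lung markers Sftpc, Scgb1a1 and Ager were at 747 CPM or more in all libraries. In bulk RNA, fewer cells of a type and less RNA per cell cannot be told apart. Comparisons that use the same saline group share its libraries.

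Per length of gene, the large ribosomal RNA mt-Rnr2 was the highest member, at a mean of 11954 CPM per kb over all libraries. mt-Rnr1, the small ribosomal RNA, had 4212 CPM per kb. These means include replicate 4 of saline at 2 weeks. With it the mean of mt-Rnr1 in that group was 7999 CPM per kb, and 736 without it. Among protein genes mt-Co1 had 7359 CPM per kb, or 10797 per kb of the part outside the match to Gm29216. mt-Cytb, the core of complex III, had 3646. The complex I genes followed with 2586 for mt-Nd1, 1232 for mt-Nd2, 845 for mt-Nd5 and 755 for mt-Nd4, or 2073 per kb of the part of mt-Nd4 outside the match to Gm28439. mt-Nd6, the only protein gene on the minus strand, was the lowest of the 7, at 185 CPM per kb.

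The protein genes together took 2.03, 1.82, 2.01, 3.91 and 2.57% of all counts in replicates 1 to 5 of saline at 2 weeks. At 2 weeks they took 2.09, 2.32, 2.505, 2.42 and 2.51% at 10 µg and 2.54, 1.56, 3.10, 2.91 and 3.45% at 100 µg. These 3 groups overlapped. At 12 weeks they took 2.60, 2.76, 1.56, 1.47 and 1.33% in the group labelled saline and 1.31, 1.25, 1.23, 1.04 and 1.19% at 100 µg. Every library of 100 µg at 12 weeks lay below every other library of the series, with a mean of 1.20 ± 0.104% (SD, n = 5) against 2.71 ± 0.722% (SD, n = 5) at the same dose and 2 weeks. The gap to the lowest 12-week saline library was narrow, 1.31% against 1.33%.

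The 2 ribosomal RNA genes together took 0.963, 0.172, 0.440, 5.89 and 1.02% of counts in saline at 2 weeks, 1.15, 0.935, 1.44, 1.59 and 1.51% at 10 µg, and 1.59, 1.71, 2.00, 2.56 and 3.19% at 100 µg. Leaving out saline replicate 4, the share was above saline in every 100 µg library, and the 10 µg range overlapped with saline. Every 100 µg library also lay above every 10 µg library, by a margin smaller than the third digit (1.594% against 1.593%). At 12 weeks the share was 3.37, 4.39, 4.07, 3.36 and 2.93% in the group labelled saline and 2.90, 2.01, 2.30, 1.91 and 1.31% at 100 µg, and the 2 groups did not overlap.

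The ratio of ribosomal RNA to protein-gene counts was mostly higher in the 12-week than in the 2-week libraries. It was 0.0946 to 0.474 in saline at 2 weeks without replicate 4, which stood at 1.51. It was 0.403 to 0.658 at 10 µg, 0.627 to 1.10 at 100 µg, 1.30 to 2.61 in the 12-week group labelled saline and 1.10 to 2.21 at 100 µg and 12 weeks. The highest library of 100 µg at 2 weeks and the lowest of 100 µg at 12 weeks were equal to the third digit, at 1.10, and overlapped by less than that. In replicate 4 the ratio between the 2 ribosomal RNAs was also unlike the rest, with mt-Rnr1 at 38.0% of their summed counts against 9.99 to 12.5% in the other 4 saline libraries.

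**Figure D2:**
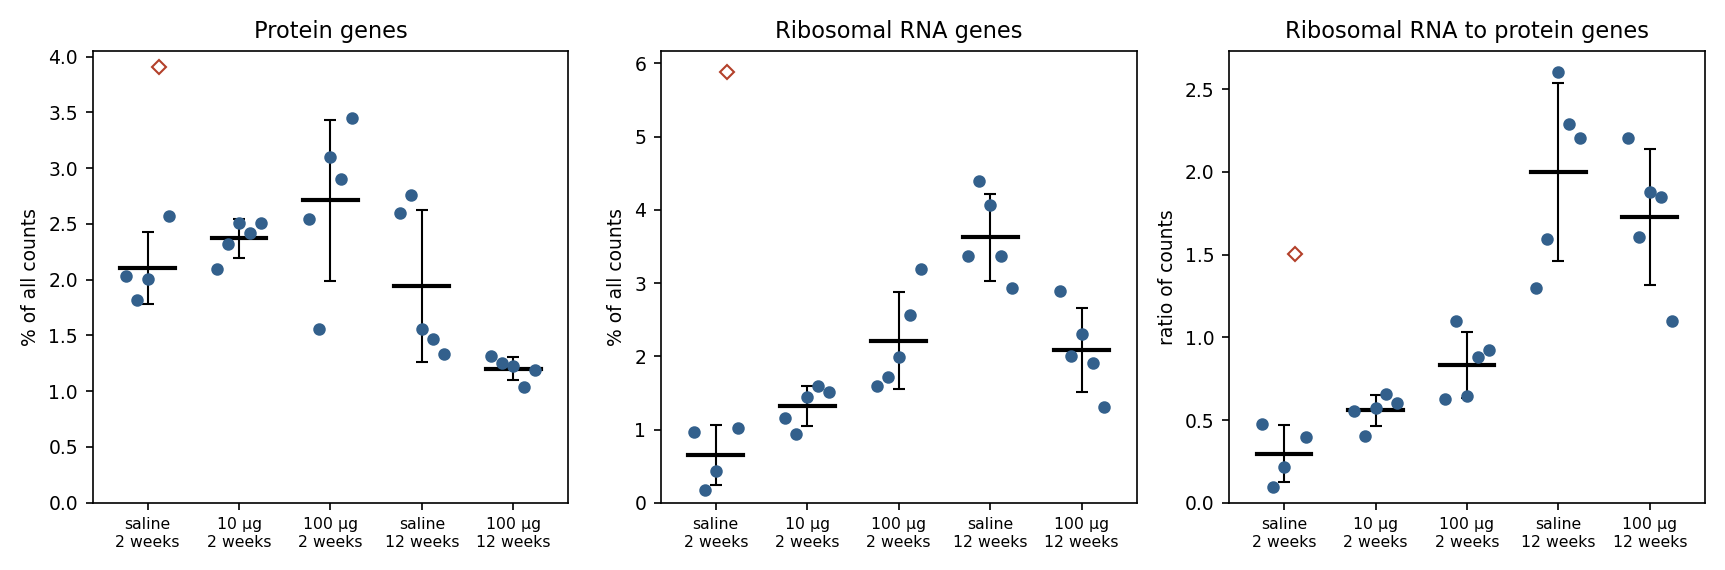
Share of all counts on mitochondrial protein genes (left) and ribosomal RNA genes (middle), both in percent, and the ratio between them (right), for each library of the 5 groups; the open diamond is replicate 4 of saline at 2 weeks, and lines and error bars are the mean and SD of the other libraries. The protein-gene share was lowest at 100 µg and 12 weeks (1.04 to 1.31%), while the ribosomal RNA share reached its highest values, replicate 4 aside, in the 12-week group labelled saline (2.93 to 4.39%).

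Cytoplasmic ribosomal RNA moved with some of these shares. Its share of counts without CT010467.1 was 0.839% in replicate 2 of 100 µg at 2 weeks, 0.926 to 1.01% in replicates 3 to 5 of the 12-week group labelled saline, and 0.900 and 0.905% in replicates 1 and 4 of 100 µg at 12 weeks, against 0.228 to 0.551% in the others. Replicate 2 of 100 µg at 2 weeks and replicates 3 to 5 of saline at 12 weeks were also those with the lowest protein-gene share in their groups. At 100 µg and 12 weeks replicate 4 had the lowest protein-gene share of its group and replicate 1 the highest. Of 5 cytoplasmic ribosomal RNA genes tested, 3 rose at 100 µg over saline at 2 weeks, where 4.12% of all genes were called higher. From 2 to 12 weeks in saline 4 rose, where 28.5% of all genes were called higher. Gm24187 was among them in both, by 2.42 and 3.54 log2 units. Without replicate 4 the counts were 3 and 3 (3.55% and 27.3% of all genes higher). The part of cytoplasmic ribosomal RNA in the mitochondrial results was not tested.

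Tests were run with edgeR's quasi-likelihood F-test across 19654 genes, with p-values adjusted by the Benjamini-Hochberg method, and called genes are those with an adjusted p under 0.05. Low-count filtering kept 17 of the 37 members: both ribosomal RNAs, mt-Nd3, the 7 well-counted protein genes and 7 transfer RNAs. Between 10 µg and saline 0 of the 17 were called, where 0.0407% of all genes were called (0.0305% higher, 0.0102% lower). With no adjustment 3 members had p under 0.05; limma-voom and DESeq2 also called 0, and so did the fit without replicate 4 (0.0201% of genes). Between 100 µg and 10 µg 0 members and 0% of genes were called, with 0 members under 0.05 before adjustment and 0 by limma-voom and DESeq2. For 100 µg against saline at 2 weeks the count was 0 of 17 against 8.13% of all genes (4.12% higher, 4.01% lower), with 1 member under 0.05 before adjustment and 0 by limma-voom and DESeq2. limma-voom with sample quality weights called 6, of which 5 were higher and 1 lower, against 15.1% of all genes (6.89% higher, 8.25% lower).

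At 100 µg against saline and 2 weeks, mt-Rnr1 was the member whose fold change depended most on replicate 4. mt-Nd6, given further below, moved more than mt-Rnr2. mt-Rnr1 stood at 1029, 207, 530, 35385 and 1043 CPM in saline at 2 weeks. It stood at 1293, 854, 1553, 1882 and 1619 CPM at 10 µg and at 1813, 2537, 2422, 3455 and 4402 CPM at 100 µg. Saline replicate 4 alone was above every other library of the series. With it, the log2 fold change at 100 µg was -1.38 (SE 0.81, adjusted p = 0.307, edgeR). Without it, every 100 µg library lay above every saline library, and mt-Rnr1 rose by 2.07 (SE 0.38, adjusted p = 0.00307, edgeR).

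mt-Rnr2 followed the same order. It stood at 8550, 1493, 3697, 57681 and 9403 CPM in saline, 10011, 8399, 12700, 13979 and 12765 CPM at 10 µg, and 13991, 13616, 16769, 21775 and 27370 CPM at 100 µg. The log2 fold change at 100 µg was 0.21 (SE 0.54, adjusted p = 0.854, edgeR) with replicate 4 and 1.70 (SE 0.36, adjusted p = 0.00768, edgeR) without it. In that fit 3 of 17 members were called, all higher, against 3.55% of all genes higher, 2.22% lower and 5.78% in either direction, and the remaining one was mt-Nd6. At 10 µg against saline the log2 fold changes of mt-Rnr1 and mt-Rnr2 were -2.41 (SE 0.84, adjusted p = 0.259, edgeR) and -0.48 (SE 0.54, adjusted p = 0.741, edgeR) with replicate 4. Without it they were 1.05 (SE 0.36, adjusted p = 0.322, edgeR) and 1.01 (SE 0.35, adjusted p = 0.325, edgeR). Neither gene passed in either fit, and both changed sign.

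At 12 weeks mt-Rnr1 stood at 4611, 5610, 7037, 5324 and 4481 CPM in the group labelled saline and at 4365, 2579, 2839, 2376 and 1326 CPM at 100 µg, with no overlap. mt-Rnr2 stood at 27868, 38860, 32628, 28170 and 24022 CPM and at 25323, 16635, 19232, 16537 and 11304 CPM, with an overlap of 1 library. All 5 of the 12-week saline group were above the 2-week saline group other than replicate 4, and in the fit without it mt-Rnr1 rose by 2.93 (SE 0.39, adjusted p = 1.76e-06, edgeR) and mt-Rnr2 by 2.37 (SE 0.37, adjusted p = 1.24e-05, edgeR). With it the edgeR values were -0.50 (SE 0.80) and 0.91 (SE 0.54), and neither was called by edgeR. At 100 µg neither ribosomal RNA was called between 2 and 12 weeks, at -0.12 (SE 0.80) and -0.07 (SE 0.54).

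The protein genes are taken by complex. For complex IV, mt-Co1 stood at 12030, 11356, 11938, 20290 and 14615 CPM in saline at 2 weeks and at 13852, 7662, 15145, 14750 and 17255 CPM at 100 µg. At 10 µg it stood between 11912 and 14745 CPM, and the 3 groups overlapped. At 12 weeks it stood at 12524, 12068, 7955, 7345 and 7152 CPM in the group labelled saline and at 7554, 6569, 6433, 5432 and 6586 CPM at 100 µg. It fell from 2 to 12 weeks by 1.08 log2 units at 100 µg (SE 0.20, adjusted p = 0.000194, edgeR) and by 0.58 in saline (SE 0.20, adjusted p = 0.0149). The fall in saline was 0.42 without replicate 4 and no longer called (adjusted p = 0.0709, edgeR).

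For complex III, mt-Cytb stood at 3262, 2531, 2826, 14926 and 4856 CPM in saline at 2 weeks and between 3700 and 4827 CPM at 10 µg. At 100 µg it stood at 4790, 2561, 6452, 5447 and 7411 CPM at 2 weeks and at 2043, 2380, 2195, 1711 and 2234 CPM at 12 weeks, with no overlap. It fell between these 2 groups by 1.34 log2 units (SE 0.38, adjusted p = 0.00766, edgeR). The 12-week saline libraries split, with 4724 and 5568 CPM in replicates 1 and 2 and 1938 to 2440 CPM in the other 3.

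For complex I, the same comparison of 100 µg at 12 against 2 weeks called mt-Nd1, mt-Nd2 and mt-Nd4, all lower. mt-Nd2, a membrane-arm subunit, stood at 1409, 814, 1870, 1769 and 2242 CPM at 2 weeks and at 567, 555, 548, 463 and 480 CPM at 12 weeks, and fell by 1.63 log2 units (SE 0.48, adjusted p = 0.00937, edgeR). mt-Nd1 stood between 1781 and 4032 CPM and then between 1093 and 1528 CPM, and fell by 1.26 (SE 0.31, adjusted p = 0.00307). mt-Nd4 stood between 792 and 1514 CPM and then between 475 and 653 CPM, and fell by 1.10 (SE 0.35, adjusted p = 0.0155). None of these 3 overlapped between the 2 groups, while mt-Nd5 and mt-Nd6 did. How many of all genes separate in this way was not counted, here or in the other comparisons of members. In all, 10 of 17 members were called lower and 0 higher, among 38.5% of all genes called and 16.4% called lower, and the 10 were mt-Co1, mt-Cytb, mt-Nd1, mt-Nd2, mt-Nd3, mt-Nd4 and the transfer RNAs mt-Ti, mt-Tq, mt-Tt and mt-Tw. Without saline replicate 4, which is in neither group but shares the estimate of spread, 12 were called lower (20.3% of all genes lower), with mt-Nd5 (-1.05, against -1.01 with it) and mt-Nd6 (-0.996, against -0.960 with it) added.

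mt-Nd5, the long membrane-arm subunit whose gene is followed by a wide gap on its strand, stood at 1106, 1009, 1104, 7330 and 1705 CPM in saline at 2 weeks, 936 to 1178 CPM at 10 µg, and 1110, 1043, 1334, 2057 and 1742 CPM at 100 µg. At 12 weeks it stood at 2572, 3595, 1376, 1522 and 1174 CPM in the group labelled saline and at 1069, 524, 605, 929 and 483 CPM at 100 µg. It was the only member called between these 12-week groups, out of 17 tested and with 8.36% of all genes called and 4.08% called lower. It fell by 1.50 log2 units (SE 0.43, adjusted p = 0.0364, edgeR), without overlap, and against a label in doubt. The call was lost (0 members) without any one of replicates 1 or 2 of saline or 2, 3 or 5 of 100 µg at 12 weeks. In those fits the calls over all genes fell to 0, 0, 31, 0 and 4, while the fold change stayed between -1.71 and -1.20 over all libraries left out. Without saline replicate 4 of the 2-week model, 6 members were called lower (6.32% of all genes lower, 7.97% higher, 14.3% in either direction): mt-Nd5 by 1.52, mt-Nd2 by 1.04, mt-Rnr1 by 1.01, mt-Nd4 by 0.88, mt-Nd1 by 0.73 and mt-Co1 by 0.54. With all libraries the last 5 of these stood at -1.03, -1.01, -0.87, -0.72 and -0.53.

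mt-Nd6 stood at 46.3, 27.2, 41.9, 636 and 62.3 CPM in saline at 2 weeks. It stood at 63.4, 48.5, 77.8, 114.0 and 101 CPM at 10 µg and at 96.0, 67.8, 144, 92.9 and 157 CPM at 100 µg, above every saline library other than replicate 4. Its log2 fold change at 100 µg was -0.49 (SE 0.58, adjusted p = 0.651, edgeR) with replicate 4 and 1.34 (SE 0.33, adjusted p = 0.0182, edgeR) without it. At 12 weeks it stood between 38.9 and 111 CPM in the group labelled saline and between 36.7 and 83.4 CPM at 100 µg, which overlapped.

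**Figure D3:**
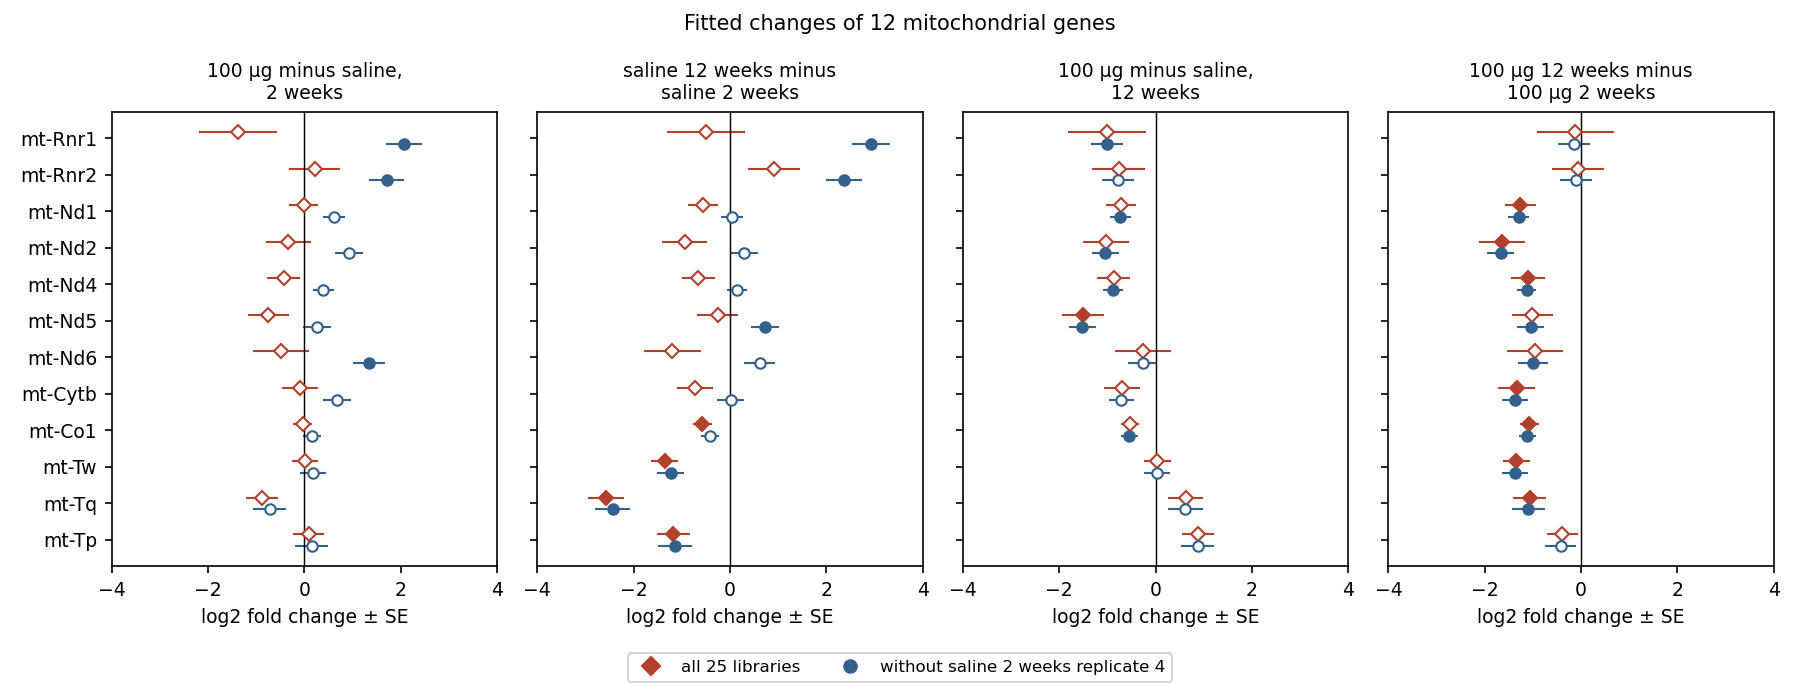
Log2 fold changes with SE (x axis) of 12 mitochondrial genes (y axis) in 4 comparisons, one per panel, fitted with all 25 libraries (diamonds) and without replicate 4 of saline at 2 weeks (circles); filled symbols passed an adjusted p under 0.05. For mt-Rnr1 the value at 100 µg and 2 weeks moved from -1.38 to 2.07 when that library was left out. For 100 µg at 12 against 2 weeks mt-Co1 and mt-Nd1 lay below 0 in both fits. That library is in neither of these 2 groups, so leaving it out could hardly move the values there.

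The difference between the 100 µg effects at 12 and at 2 weeks was tested in the same fit. With all libraries 0 of 17 members were called against 8.26% of all genes (4.74% higher, 3.52% lower), with 1 member under 0.05 before adjustment, 0 by limma-voom, 1 by DESeq2 and 9 (27.2% of all genes) by limma-voom with quality weights. Without replicate 4, 8 of 17 were called, all lower, against 5.09% of all genes lower, 6.18% higher and 11.3% in either direction. They were mt-Rnr1 at -3.08 (SE 0.50), mt-Rnr2 at -2.48 (SE 0.48), mt-Nd2 at -1.96 (SE 0.40), mt-Nd5 at -1.77 (SE 0.40), mt-Nd6 at -1.61 (SE 0.44), mt-Cytb at -1.39 (SE 0.39), mt-Nd1 at -1.34 (SE 0.31) and mt-Nd4 at -1.27 (SE 0.29) log2 units. With all libraries mt-Rnr1 and mt-Nd6 stood above 0, at 0.38 (SE 1.13) and 0.24 (SE 0.82), and the other 6 between -0.98 and -0.44. This difference uses both saline groups and therefore the label in doubt.

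The make-up of the protein-gene counts also varied, and as a share it does not depend on library size. mt-Co1 made up 55.4 to 63.2% of them in saline at 2 weeks without replicate 4, 52.0 to 60.0% at 10 µg, and 50.2 to 55.0% at 100 µg. In replicate 4 it made up 32.8%, the lowest of all libraries. mt-Nd5 made up 5.47 to 6.46% in saline at 2 weeks (11.9% in replicate 4) and 3.83 to 4.89% at 10 µg, below every saline library. It made up 9.04 to 12.9% in the 12-week group labelled saline. At 100 µg and 12 weeks it split, with 7.95 and 9.08% in replicates 1 and 4 and 4.19 to 5.15% in the other 3. Replicates 1 and 4 were also the 2 with the higher cytoplasmic ribosomal RNA share named above. mt-Nd6 made up 0.151 to 0.236% in saline at 2 weeks without replicate 4, at 1.03%, and 0.324 to 0.484% at 100 µg and 2 weeks.

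**Figure D4:**
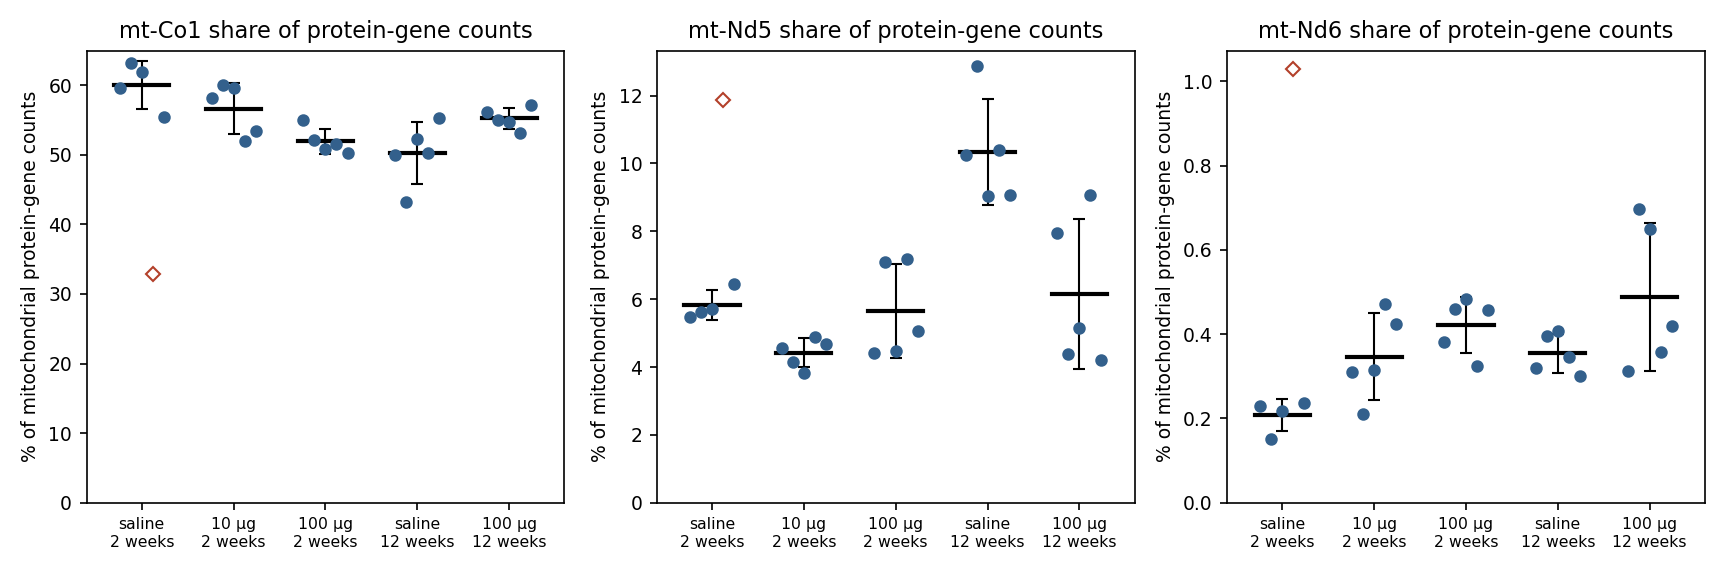
Share of the summed mitochondrial protein-gene counts (y axis, percent) held by mt-Co1 (left), mt-Nd5 (middle) and mt-Nd6 (right) in each library of the 5 groups; the open diamond is replicate 4 of saline at 2 weeks, and lines and error bars are the mean and SD of the other libraries. mt-Nd5 held 3.83 to 4.89% at 10 µg and 9.04 to 12.9% in the 12-week group labelled saline.

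Of the 7 transfer RNAs tested, 5 were called lower from 2 to 12 weeks in saline, with and without replicate 4, and 4 at 100 µg. Of all genes, 25.6% were called lower in saline (25.5% without replicate 4) and 16.4% at 100 µg. mt-Tm was not called in either, with values of 0.67 (SE 0.47) and -0.62 (SE 0.47). mt-Tw stood at 4.74, 3.34, 3.60, 6.56 and 3.25 CPM in saline at 2 weeks and at 1.49, 2.15, 1.94, 1.44 and 0.942 CPM in the 12-week group labelled saline. At 100 µg it stood at 3.00, 2.52, 3.06, 5.91 and 6.33 CPM at 2 weeks and at 2.32, 1.58, 1.15, 1.29 and 1.90 CPM at 12 weeks. Neither pair of groups overlapped. mt-Tw fell by 1.36 log2 units in saline (SE 0.28, adjusted p = 0.000259, edgeR; 1.22 without replicate 4) and by 1.34 at 100 µg (SE 0.27, adjusted p = 0.000554).

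mt-Tq stood at 2.58, 2.09, 3.46, 4.37 and 1.40 CPM in saline at 2 weeks and at 0.389, 0.549, 0.756, 0.314 and 0.177 CPM in the 12-week group labelled saline. It fell by 2.57 log2 units (SE 0.37, adjusted p = 2.72e-06, edgeR), the largest fall of any member in that comparison, and by 2.44 without replicate 4. At 100 µg it stood between 0.905 and 2.36 CPM at 2 weeks and between 0.430 and 0.908 CPM at 12 weeks, and it fell by 1.06 (SE 0.34, adjusted p = 0.0170). mt-Tp stood between 1.16 and 2.19 CPM in saline at 2 weeks and between 0.353 and 1.61 CPM in the 12-week group labelled saline, which overlapped. It fell by 1.18 there (SE 0.34, adjusted p = 0.00517), and its change at 100 µg, -0.39 (SE 0.32), did not pass.

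Between saline at 12 and at 2 weeks, 7 of 17 members were called, all lower, among 54.1% of all genes called and 25.6% called lower. They were mt-Co1, mt-Nd3 and the transfer RNAs mt-Ta, mt-Tp, mt-Tq, mt-Tt and mt-Tw. Without replicate 4, 9 were called (52.8% of all genes), 6 of them lower (25.5% of all genes lower), namely mt-Nd3 and the same 5 transfer RNAs, and 3 higher (27.3% of all genes higher), namely mt-Rnr1, mt-Rnr2 and mt-Nd5, the last by 0.73 (SE 0.29, adjusted p = 0.0407, edgeR) against -0.26 (SE 0.42) with all libraries. The count was 12, all lower, without replicate 2 of saline at 2 weeks (51.5% of all genes called) and 11, all lower, without replicate 2 of saline at 12 weeks (53.2%). With all libraries the share of members called in either direction was below that of all genes. By limma-voom with all libraries, 2 members were called higher and 7 lower (27.8% and 25.2% of all genes). Quality weights called 2 higher and 8 lower (31.3% and 27.7%), and DESeq2 0 higher and 7 lower (29.5% and 26.2%). mt-Rnr1 rose by 1.99 (adjusted p = 0.0311, limma-voom) and by 2.71 (adjusted p = 0.000294, limma-voom with quality weights). The direction rests on the label in doubt.

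**Figure D5:**
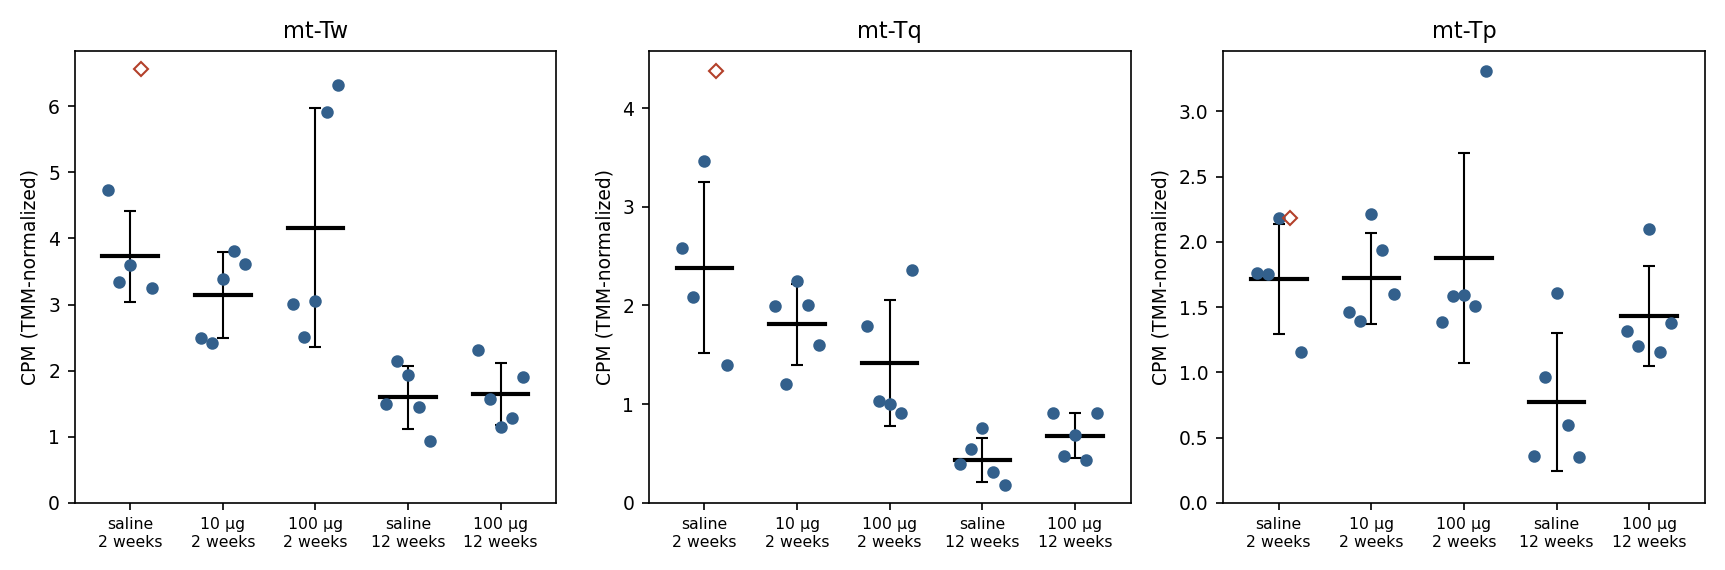
TMM-normalized CPM (y axis) of the transfer RNA genes mt-Tw (left), mt-Tq (middle) and mt-Tp (right) in each library of the 5 groups; the open diamond is replicate 4 of saline at 2 weeks, and lines and error bars are the mean and SD of the other libraries. mt-Tq lies between 0.177 and 0.756 CPM in the 12-week group labelled saline and between 1.40 and 4.37 CPM in saline at 2 weeks.

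The other counted transfer RNAs were lower still. mt-Ti, for isoleucine, had 670 counts over all libraries, mt-Ta (alanine) 290, mt-Tm (methionine) 220, mt-Tt (threonine) 153, mt-Te (glutamate) 67 and mt-Ty (tyrosine) 48. mt-Ta and mt-Tt fell from 2 to 12 weeks in saline by 1.58 and 1.86 log2 units, and mt-Ti and mt-Tt fell at 100 µg by 0.98 and 1.56. Values of this size rest on few reads, since 3 counts correspond to 0.0572 to 0.655 CPM depending on the library, and this covers counting error only. mt-Nd3, the only one of the 6 copied protein genes to pass the filter, had 1 to 29 counts per library and fell by 1.77 in saline (SE 0.43) and by 1.97 at 100 µg (SE 0.44) from 2 to 12 weeks, with the limit on its counts given above. mt-Nd4l had 0 counts, and 3 counts over all libraries would be 0.00348 CPM; it lies whole in the copied stretch.

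Genes in the nucleus that work on these RNAs or join their proteins were looked at as lists. The list counts are read against the shares of all genes called. These shares were 8.13% at 100 µg against saline at 2 weeks (4.12% higher, 4.01% lower). From 2 to 12 weeks they were 54.1% in saline (28.5% higher, 25.6% lower) and 38.5% at 100 µg (22.1% higher, 16.4% lower). Of 22 genes for transcription and replication of mitochondrial DNA, 3 were called at 100 µg against saline at 2 weeks. Mterf4, which guides ribosome assembly in mitochondria, fell by 0.39 log2 units (SE 0.08), Mterf1b, of the family of transcription termination factors, fell by 0.73 (SE 0.20) and Top3a, a topoisomerase, rose by 0.40 (SE 0.12). Without replicate 4 Top3a, at 0.31 (SE 0.10, adjusted p = 0.0551, edgeR), was not called. From 2 to 12 weeks 13 fell and 2 rose in saline (median of the 22 tested -0.37, against 0.04 for all genes; 12 and 1 without replicate 4), and 7 fell and 2 rose at 100 µg (median -0.11, against 0.02). Rrm2b, which supplies nucleotides for mitochondrial DNA, fell by 0.77 (SE 0.08) in saline and by 0.45 (SE 0.08) at 100 µg.

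Of 27 genes for processing and stability of mitochondrial RNA, 1 rose and 2 fell at 100 µg and 2 weeks. Slirp, which protects mitochondrial messenger RNAs with Lrpprc, fell by 0.41 (SE 0.09), Mtpap, the mitochondrial poly(A) polymerase, fell by 0.31 (SE 0.09) and Tbrg4 (Fastkd4), a regulator of mitochondrial RNA stability, rose by 0.38 (SE 0.10). Without replicate 4 Mtpap, at -0.27 (SE 0.09, adjusted p = 0.0841, edgeR), was not called. From 2 to 12 weeks 4 rose and 7 fell in saline (3 and 10 without replicate 4), with Slirp at -0.59 (SE 0.09), Trmt10c, a subunit of mitochondrial RNase P, at -0.70 (SE 0.12) and Tbrg4 at 0.86 (SE 0.10). At 100 µg 6 rose and 2 fell over the same interval. In both, fewer of the 27 were called than of all genes.

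The 77 mitochondrial ribosomal protein genes encode proteins that bind the products of mt-Rnr1 and mt-Rnr2. At 100 µg and 2 weeks 1 rose and 8 fell (median -0.12). Without replicate 4, 1 rose and 2 fell (median -0.16), while both ribosomal RNAs were called higher in that fit. The gene that rose was Mrpl12, at 0.91 (SE 0.13). From 2 to 12 weeks in saline 4 rose and 30 fell (median -0.17; 2 and 34 without replicate 4), and at 100 µg 15 rose and 7 fell (median 0.11). At 12 weeks 8 rose and 0 fell at 100 µg over saline, where 4.29% of all genes were called higher. Without the 2-week saline replicate 4, 24 rose and 0 fell (7.97% of all genes higher), again against a label in doubt. Leaving out replicate 1 or 2 of 12-week saline took the calls over all genes in this comparison to 0. Of 19 mitochondrial aminoacyl-tRNA synthetases, which charge the transfer RNAs, Lars2 was the 1 called at 100 µg and 2 weeks, at -3.32 (SE 0.88, adjusted p = 0.0230, edgeR). Lars2 stood at 20.8, 14.0, 26.0, 510 and 11.9 CPM in saline at 2 weeks and between 6.98 and 16.6 CPM at 100 µg, so the value rests on replicate 4, and without it Lars2, at -0.70 (SE 0.53, adjusted p = 0.477, edgeR), was not called.

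Between 100 µg at 12 and at 2 weeks, where 6 mitochondrial protein genes fell, nuclear subunits of the respiratory chain were called mostly higher. In complex I 12 of 35 rose and 3 fell (median 0.16), in complex II 3 of 4 rose, in complex III 6 of 9 rose and 1 fell (median 0.39), in complex IV 8 of 11 rose and 0 fell (median 0.44) and in ATP synthase 11 of 15 rose and 1 fell (median 0.40), against a median of 0.02 over all genes and 22.1% of all genes called higher. Cox4i1 and Cox5a, which join the product of mt-Co1 in complex IV, rose by 0.55 (SE 0.08) and 0.85 (SE 0.15), while mt-Co1 fell by 1.08. Ndufa2 of complex I rose by 0.86 (SE 0.15) and Cyc1 of complex III by 0.80 (SE 0.20).

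Over saline at 12 weeks the same lists had 7, 2, 2, 5 and 4 genes higher at 100 µg and 0 lower, for complexes I to IV and ATP synthase, where 4.29% of all genes were called higher. The label of that saline group is in doubt. Calls over all genes in this comparison fell to 0 without replicate 1 or 2 of 12-week saline or replicate 3 of 100 µg at 12 weeks. They fell to 31 and 4 without replicates 2 and 5 of 100 µg at 12 weeks. Cox4i1 rose by 0.41 (SE 0.08) over saline at 12 weeks with all libraries. It fell by 0.28 (SE 0.08) at 100 µg over saline at 2 weeks, a call lost without replicate 4 of 2-week saline (-0.26, SE 0.08, adjusted p = 0.0623, edgeR). From 2 to 12 weeks in saline complex I had 1 of 35 higher and 16 lower (median -0.22; 0 and 19 without replicate 4), led by Ndufb4 at -0.96 (SE 0.11). Of 19 genes for abundant proteins of the organelle, such as porins and carriers, 6 rose and 0 fell from 2 to 12 weeks at 100 µg, and 4 rose and 9 fell in saline. Their summed level was 1581 to 1824 CPM at 100 µg and 2 weeks and 1781 to 1863 CPM at 100 µg and 12 weeks.

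Of 8 regulators of mitochondrial biogenesis, 3 rose and 2 fell from 2 to 12 weeks in saline and likewise at 100 µg, among 54.1% and 38.5% of all genes called. Ppargc1b, a coactivator of mitochondrial genes, rose by 2.39 (SE 0.24) in saline and by 1.40 (SE 0.23) at 100 µg. Tfam, which packs mitochondrial DNA and starts its transcription, fell by 0.42 (SE 0.07) in saline. At 100 µg the related Ppargc1a fell by 0.82 (SE 0.17) and the nuclear receptor Esrra rose by 1.04 (SE 0.19).

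Heart muscle, which is rich in mitochondria and can be taken along with lung, was followed with 19 markers. Their summed level ran from 828 to 2418 CPM at 100 µg and 2 weeks and from 160.0 to 1126 CPM at 100 µg and 12 weeks. Of the 17 tested 8 fell and 0 rose over that interval, where 16.4% of all genes were called lower. In saline the summed level ran from 410 to 1403 CPM at 2 weeks and from 196 to 876 CPM at 12 weeks, and 3 fell (25.6% of all genes lower). The atrial marker Myl7 was present in every library, at 2.93 CPM or more, while the ventricular marker Myl2 was at or near 0 throughout, at no more than 0.194 CPM. On the same list Myh7 stood between 20.5 and 43.1 CPM in all libraries, and Myl3 between 0.0538 and 4.48 CPM. The kind of heart muscle was not tested. Of 13 markers of ciliated cells, 6 fell from 2 to 12 weeks at 100 µg (16.4% of all genes lower) and 5 in saline (25.6%). Without replicate 4, 4 fell in saline (25.5%). Their summed levels were 423 to 767 CPM and then 386 to 714 CPM at 100 µg. The 12 lung markers had summed levels of 38674 to 50355 CPM at 100 µg and 2 weeks and 25176 to 33001 CPM at 12 weeks, without overlap. In saline they had 28810 to 63348 CPM at 2 weeks and 22658 to 28278 CPM at 12 weeks. Scgb1a1, the secretory protein of club cells, took a large part of these sums. At 100 µg it went from 20425 to 34393 CPM at 2 weeks to 5805 to 13926 CPM at 12 weeks. The surfactant genes of alveolar type 2 cells did not share this fall, with Sftpc at 6469 to 9283 and then 8159 to 10698 CPM. Sftpb overlapped, at 1824 to 2620 and then 1440 to 2047 CPM. At 100 µg 2 of the 12 rose and 2 fell (22.1% of all genes higher, 16.4% lower). Scgb1a1 fell by 1.48 (SE 0.26), while the surfactant genes Sftpd and Sftpa1 rose by 1.72 (SE 0.23) and 0.63 (SE 0.12). In saline 2 rose and 5 fell, where 28.5% of all genes were called higher and 25.6% lower. Scgb1a1 stood at -1.66 (SE 0.26) in saline. Without replicate 4, 7 fell (25.5% of all genes lower). The part of these cells in the mitochondrial falls was not tested.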

How the data were processed

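Per the labels' protocols, libraries were made from lung RNA with Illumina's TruSeq Stranded Total RNA chemistry, and reads were aligned with STAR 2.5.3a to GRCm38, per the submitters' processing notes. The authors deposited raw whole-number counts per Ensembl gene, not normalized. Counter, strand setting, annotation release and treatment of reads with several matches are not given in the sources used here; levels of copied, overlapping or antisense genes are uncertain.

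All 25 columns were used, and symbols were found for 99.5% of the 55421 genes. In all 300 pairs of libraries counts differed by more than sampling noise (lowest chi-square per degree of freedom 13.1). Totals were 7.23 to 51.9 M counts. Genes were kept with filterByExpr, scaled by TMM and tested with edgeR 4.0.16 (R 4.3.3) in 1 fit of the 5 groups, with adjustment over 19654 genes (19893 without replicate 4 of saline at 2 weeks). The 7 comparisons and the alternatives (DESeq2 1.42.0, limma 3.58.1, other scalings and filters, each library left out) are those whose effects are given in the closing section. The test was checked on simulated counts. Sums over members were described without a test. The cytoplasmic ribosomal RNA list was extended after the data were seen, when CT010467.1 was found to fill 1 library. Copies were found as shared words of 100 bases, with 50 bases as an alternative, between GENCODE M21 transcripts of mitochondrial and nuclear genes (GRCm38).

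The members and gene lists were chosen with earlier results of these data known. All protein and ribosomal RNA members were named, together with transfer RNAs of at least 1 CPM on average; from each other list up to 3 called genes with the smallest p per comparison were eligible, and mt-Tl1 and the marker genes besides were chosen after values were seen where that rule left them out. Values are means ± SD over mice where given so, and SE otherwise. The replicate numbers of the labels say nothing of shared cages or days: over 50 pairs of same-numbered libraries the correlation of deviations ran from -0.45 to 0.37, so numbers were not taken as pairs.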

Additional observations from a re-analysis of the deposited data

Results flagged for a closer look

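Replicate 4 of saline at 2 weeks lay far from the other 4 libraries of its group in 12 measures. Its mitochondrial share of counts was 9.80% (1.99 to 3.59% in the others), its mitochondrial ribosomal RNA share 5.89% (0.172 to 1.02%), its ratio of ribosomal RNA to protein-gene counts 1.51 (0.0946 to 0.474), and mt-Rnr1 made up 38.0% of its ribosomal RNA counts (9.99 to 12.5%). Its level was 35385 CPM for mt-Rnr1 (207 to 1043), 57681 CPM for mt-Rnr2 (1493 to 9403), 7515 CPM for mt-Nd1, 6803 CPM for mt-Nd2, 4296 CPM for mt-Nd4, 7330 CPM for mt-Nd5, 636 CPM for mt-Nd6 and 14926 CPM for mt-Cytb. The same library had the lowest total, 7.23 M counts, and 27.8% of its counts on CT010467.1. The part of either in these values was not tested.

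mt-Tp stood apart in 2 other groups. It reached 3.31 CPM in replicate 5 of 100 µg at 2 weeks, against 1.38 to 1.60 CPM in the other 4, and 2.10 CPM in replicate 3 of 100 µg at 12 weeks, against 1.16 to 1.38 CPM. In all, 90 groups of values were looked at in this way, of which chance alone sets apart about 1 in 20.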

How the results depend on the processing

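Over 36 settings, 7 of 39 single-gene results changed direction in any. All involved the saline libraries at 2 weeks. At 100 µg against saline and 2 weeks (log2, -1.38 for mt-Rnr1 and -0.49 for mt-Nd6), limma-voom gave 1.06 and 0.91, quality weights 1.86 and 1.44, the replicate block 0.12 and 0.10, and total counts without scaling 0.0017 for mt-Nd6. Leaving out each library gave -1.69 to 2.07 for mt-Rnr1, -0.075 to 1.70 for mt-Rnr2 and -0.77 to 1.34 for mt-Nd6. From 2 to 12 weeks in saline (-0.50 for mt-Rnr1, -0.26 for mt-Nd5), total counts gave 0.13 and 0.12, limma-voom 1.99 and 0.098, quality weights 2.71 and 0.22, the replicate block 1.07 and 0.073, and left-out libraries -0.83 to 2.93 and -0.56 to 0.73. For the difference of the 100 µg effects (0.38 for mt-Rnr1, 0.24 for mt-Nd6), total counts gave -0.25 and -0.24, limma-voom -2.14 and -1.15, quality weights -3.17 and -1.27, the block -1.11 and -0.38, and left-out libraries -3.08 to 0.68 and -1.61 to 0.49. The cause was not tested.

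Counts of called members moved as follows. At 100 µg against saline and 2 weeks (0), quality weights called 5 higher and 1 lower (15.1% of all genes), and left-out libraries 0 to 3. At 100 µg against saline and 12 weeks (1), limma-voom called 1 higher and 1 lower, where 15.6% of all genes were called. Quality weights called 1 higher and 2 lower (26.7% of all genes), and DESeq2 0 higher and 2 lower (14.7%). The compared groups alone called 0, and left-out libraries 0 to 6. From 2 to 12 weeks in saline (7), the stricter filter (at least 1 CPM in 5 libraries) and the compared groups alone called 4 each, with 13 and 14 members tested instead of 17, and left-out libraries 6 to 12. At 100 µg from 2 to 12 weeks (10), left-out libraries called 7 to 12. For the difference (0), quality weights called 1 higher and 8 lower (27.2% of all genes). DESeq2 called 1 higher (12.4%), and left-out libraries 0 to 8. The replicate block called 8 members from 2 to 12 weeks in saline, 9 at 100 µg, and as many as without it elsewhere. The group shares moved by less than 1 SD under every other denominator, under the median and with each library left out, but in saline at 2 weeks that SD is itself set by replicate 4: without it the ribosomal RNA share went from 1.70 to 0.648%, its ratio to protein-gene counts from 0.538 to 0.296 and the mitochondrial share from 4.16 to 2.76%.

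Limits are the small counts of the transfer RNAs, the unknown handling of reads with several matches, the 12-week saline label in doubt, and 1 shallow library. In edgeR's fit that library decides the direction of mt-Rnr1 and mt-Nd6 at 100 µg against saline in the 2-week model. With it kept, limma-voom gave the opposite direction to edgeR for both genes.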
